A study of Mus musculus with 2 samples.

Results

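Klf2, Klf4 and Klf5 encode the 3 Kruppel-like transcription factors that are best known from naive mouse embryonic stem cells. They were taken by symbol from the 32285 genes listed in the deposited files, where 17 genes belong to the Kruppel-like family. The cells came from 9 embryonic stem cell lines derived in C3H/HeSn-Paf/J mice, an inbred strain, with 3 lines each from XX, XO and XY embryos, and all lines were pooled. Time 1 is the early-passage library, and time 2 the library made after the pool had been carried for 10 further passages. Culture medium held serum and leukaemia inhibitory factor (LIF), the cells grew on irradiated mouse embryonic fibroblast feeders, and capture was done with 10x Chromium 3′ chemistry. Each time point had 1 library, and cells were not linked to lines, so a difference between time points also holds any difference in the mix of lines and cannot be told apart from it. The time points were therefore not tested against each other, and all intervals cover counting error only.

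Kruppel-like factors carry a zinc finger domain at the carboxyl end that reads GC-rich and CACCC-containing DNA. In mouse embryonic stem cells, LIF acts through its receptor, the kinase Jak1 and the transcription factor Stat3, and Klf4 is a known target of Stat3. Klf2 is known to be held down by the mitogen-activated protein kinase (MAPK) pathway, and Klf5 is known to restrain entry into differentiation. Any of the 3 can stand in for the others in part, which is why they are studied together.

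The 3 genes lie on separate autosomes in GRCm38. Klf2 (ENSMUSG00000055148) is at chr8:72319033-72321656 on the plus strand, Klf4 (ENSMUSG00000003032) at chr4:55527143-55532466 on the minus strand, and Klf5 (ENSMUSG00000005148) at chr14:99298691-99315036 on the plus strand. RefSeq promoters (GRCm38.p6, 250 bases before to 50 bases after the start) were held for 2 of the 3, Klf2 at chr8:72318812-72319111 (plus strand) and Klf4 at chr4:55532426-55532725 (minus strand). They are shown because Kruppel-like factors bind the kinds of letters marked in them, and capitals mark CACCC and GGGCGG on either strand.
Klf2: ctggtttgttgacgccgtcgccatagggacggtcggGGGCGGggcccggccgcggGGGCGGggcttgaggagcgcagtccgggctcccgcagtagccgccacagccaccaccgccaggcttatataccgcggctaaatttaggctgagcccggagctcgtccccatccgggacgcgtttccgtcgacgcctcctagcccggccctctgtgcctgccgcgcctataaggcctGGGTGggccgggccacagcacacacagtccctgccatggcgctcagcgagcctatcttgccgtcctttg
Klf4: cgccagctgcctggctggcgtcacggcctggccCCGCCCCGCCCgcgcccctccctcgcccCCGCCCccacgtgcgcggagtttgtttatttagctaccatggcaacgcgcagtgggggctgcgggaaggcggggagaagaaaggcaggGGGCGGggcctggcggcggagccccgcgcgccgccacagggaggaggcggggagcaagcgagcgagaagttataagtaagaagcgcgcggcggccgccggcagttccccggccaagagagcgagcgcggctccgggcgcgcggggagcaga
The Klf2 window held 2 matches to GGGCGG and 1 to CACCC, and the Klf4 window held 4 matches to GGGCGG and 0 to CACCC. Among 32851 RefSeq promoter windows of the same length, 57.5% held CACCC and 35.7% held GGGCGG on either strand. The Stat motif TTCNNNGAA, found in 8.30% of windows, and the octamer ATGCAAAT, found in 1.74%, did not occur in either window. Matches are descriptions of letters, and GC content was 69.3% for Klf2 and 74.3% for Klf4 against a median of 52.7% over all windows.

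After filtering there were 23284 cells at time 1 and 25535 at time 2, with medians of 44488 and 50441 unique molecular identifiers (UMIs, each a counted RNA molecule) per cell, and 160 cell barcodes occurred in both libraries. Cells were clustered without the 3 genes, and the 13 clusters are called by their leading gene. The H19-, Jam2-, Nanos3- and Mras-led clusters were named pluripotent stem cell-like (9138 cells at time 1 and 20117 at time 2). The Sema6a-led cluster was primed epiblast-like, the Lhx1-led mesendoderm-like, the Srgn-led endoderm-like, the Mgp-led fibroblast-like and the B020031M17Rik-led 2-cell-like. The Lhx1-led cluster also held 7 of 8 endoderm markers at 1 CPM or more, the endothelial genes Cdh5 and Kdr stood among the leading genes of the Srgn-led cluster, and Ascl2, a trophoblast marker, among those of the H19-led cluster. Endoderm markers summed to 325 CPM in the Lhx1-led and 263 CPM in the Srgn-led cluster at time 1, and to 153 and 670 CPM at time 2. Endothelial markers summed to 232 and 338 CPM in the Srgn-led cluster at the 2 times. The Notch2-, T-, Card19- and Lyz2-led clusters stayed unnamed. All 12 pluripotency markers were detected in every cluster, the fibroblast-like one included, where they summed to 3108 CPM in the first library and 2851 in the second. CPM is the summed UMIs of a gene, scaled to 1000000 UMIs of the same cells. In the 4 pluripotent clusters they summed to between 6132 and 12183 CPM, a range that also held the Notch2-led (8450 CPM), Card19-led (8329 CPM) and 2-cell-like (10734 and 8860 CPM) clusters, and the 7 fibroblast markers to between 3.97 and 8.52 CPM. The 5 primed epiblast markers were not particular to the Sema6a-led cluster. They summed to 722 and 572 CPM there, to 729 and 622 CPM in the T-led and to 1382 and 916 CPM in the Lhx1-led cluster.

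Klf2 was high in the 4 pluripotent clusters and the 2-cell-like cluster (328 and 392 CPM) and low in the primed epiblast-like, T-led and mesendoderm-like clusters. The unnamed Card19- and Notch2-led clusters lay between, with 305 and 292 CPM at time 1. At time 1 its level was 505 CPM in the Nanos3-led, 411 in the Jam2-led and 386 in the H19-led cluster, and at time 2 it was 461 in the Nanos3-led, 434 in the Mras-led, 414 in the Jam2-led and 322 in the H19-led cluster. The lowest level was that of the Lhx1-led cluster, with 45.6 CPM at time 1 (95% Poisson interval 41.5 to 49.97), and time 2 gave 37.1 CPM (33.7 to 40.7). From the lowest to the highest cluster the Klf2 level spanned 11.1-fold at time 1 and 12.4-fold at time 2. The primed epiblast-like cluster held 125 CPM at time 1 and 106 CPM at time 2, and the unnamed T-led cluster 92.6 and 99.4 CPM. Intervals of neighbouring clusters in the order of Klf2 levels were apart at time 1. At time 2 the Jam2-led and 2-cell-like clusters (414 and 392 CPM) overlapped, as did the primed epiblast-like and T-led clusters.

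Klf4 had another order. At time 1 it was highest in the fibroblast-like (123 CPM), the Lyz2-led (120 CPM) and the Jam2-led (119 CPM) clusters, whose intervals overlapped. Lyz2 is a macrophage gene, and the 4 macrophage markers summed to 8795 CPM in that cluster of 56 cells. By time 2 the Jam2-led cluster stood highest with 300 CPM (95% Poisson interval 297.0 to 303), followed by the fibroblast-like cluster with 155 CPM, the Mras-led with 114 CPM, the Nanos3-led with 85.9 CPM and the H19-led with 77.6 CPM. Lowest were the T-led cluster, with 13.3 and 23.7 CPM, and its neighbours in the order, whose intervals overlapped with it, the Card19-led at time 1 (16.3 CPM) and the primed epiblast-like at time 2 (26.0 CPM, after 25.1 CPM at time 1).

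Klf5 varied least between clusters at time 2, spanning 3.66-fold from the fibroblast-like cluster (80.0 CPM) to the Jam2-led cluster (293 CPM). The time 1 span was 6.82-fold, from the Card19-led cluster (29.3 CPM), whose 69 cells had a median of 352626 UMIs, to the Jam2-led cluster (200 CPM). Unlike Klf2, Klf5 in the mesendoderm-like cluster (107 and 103 CPM) lay close to its level in the primed epiblast-like cluster (91.8 and 109 CPM), and the 2 intervals overlapped at time 2. In the endoderm-like cluster Klf5 stood at 89.8 CPM at time 1 and 191 CPM at time 2, a larger gap between libraries than in the Jam2-, H19- and Nanos3-led clusters. The endoderm markers of that cluster differed as well, with sums of 263 and 670 CPM.

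**Figure D1:**
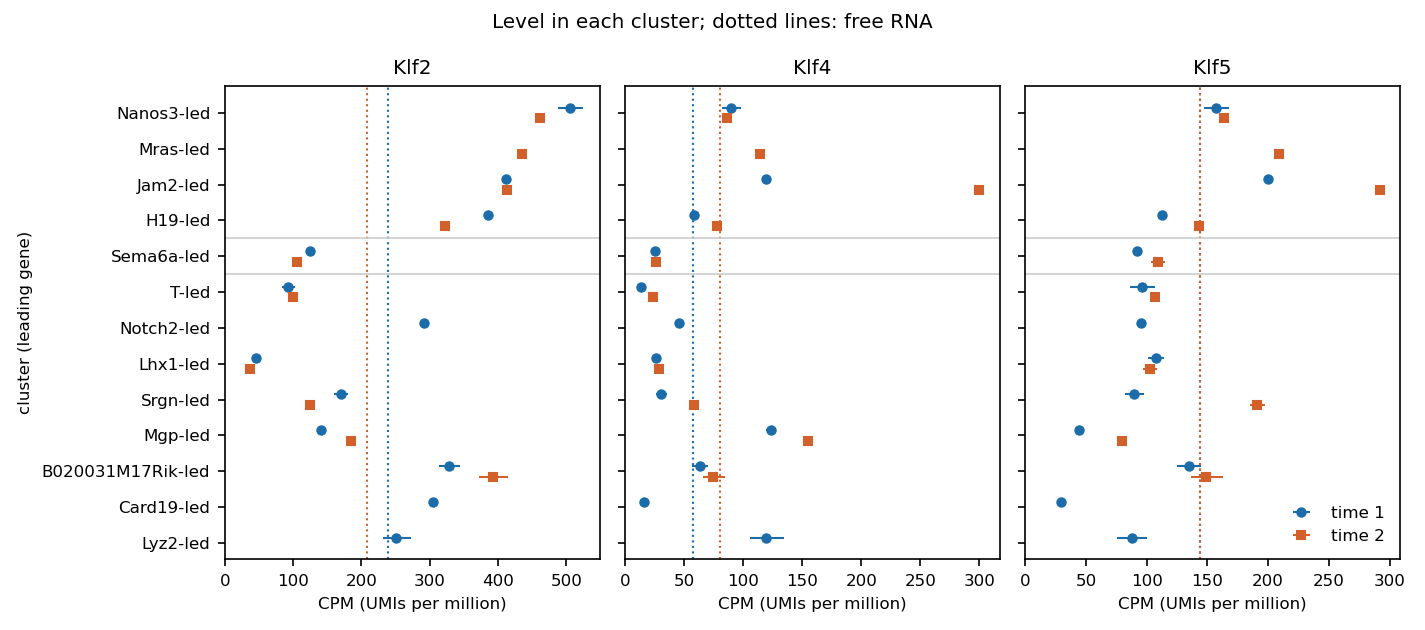
Level of each gene (x axis, CPM) in each cluster of at least 50 cells (y axis), with blue circles for time 1, orange squares for time 2 and bars for 95% Poisson intervals; dotted lines give the level in barcodes with at most 2000 UMIs, and grey lines set off the primed epiblast-like cluster. Klf2 separates the upper 4 clusters from the Sema6a-, T- and Lhx1-led ones, and the Jam2-led cluster at time 2 lies at 300 CPM for Klf4 and 293 CPM for Klf5.

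Free RNA held all 3 genes. In barcodes with at most 2000 UMIs, Klf2 was at 239 CPM at time 1 and 208 at time 2, Klf4 at 57.8 and 80.0, and Klf5 at 144 in both libraries. The unnamed Notch2-led cluster, with 6156 of its cells at time 1 and a median of 28819 UMIs, had 292 CPM of Klf2, 45.7 of Klf4 and 95.0 of Klf5. How much free RNA adds to each cluster was not tested. Klf2 lay above its level in free RNA in each pluripotent cluster of at least 50 cells at both times, and in the Lhx1-led cluster far below it. Klf4 in the H19-led cluster (58.7 and 77.6 CPM) was at about the level in free RNA in both libraries. Klf5 lay below it at time 1 in the H19-led cluster (113 CPM) and in the pooled pluripotent cells (136 CPM). For these, the part of free RNA in the shares of cells with a UMI was not measured. The barcodes used for free RNA held at least 500 UMIs at time 1 and 524 at time 2, and whether some were cells was not tested.

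To compare shares of cells, every cell was thinned to 10000 UMIs, and no cell was shallower. The pooled shares at time 1 include the H19-led cluster, and without it they were 92.1% for Klf2, 56.4% for Klf4 and 75.3% for Klf5, against 95.0%, 57.8% and 80.0% at time 2. With it, a Klf2 UMI was found in 90.2% of pluripotent stem cell-like cells at time 1 and 94.5% at time 2 (98.8% and 99.5% without thinning). In the Lhx1-led cluster the shares were 24.1% (exact binomial interval 18.5% to 30.3%) and 26.0%, with median depths of 43887 and 45427 UMIs against 50763 and 50471 in the pluripotent population. Klf4 was found in 38.8% and 57.3% of pluripotent stem cell-like cells (72.1% and 89.2% without thinning), against 13.4% and 16.4% of T-led cells, whose median depths were 53802 and 50122 UMIs. For Klf5 the shares were 63.6% and 79.5% (94.2% and 98.6% without thinning), against 32.4% and 36.4% in the fibroblast-like cluster, whose median depths were 43502 and 61611 UMIs. Cells with 5 or more thinned Klf4 UMIs made up 4.30% of the Jam2-led cluster at time 1 and 22.2% at time 2.

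The genes whose levels ran most alike were found over 22 profiles (cluster by library, at least 50 cells each) as the highest Pearson correlations of log2(CPM + 1) among 7745 genes with at least 20 CPM in any profile. Profiles of the same library share free RNA and differ in depth, so the values are descriptions. Median depth at time 1 was 28792 UMIs in the Notch2-led and 352626 in the Card19-led cluster. Klf2 ran most like Gtsf1l (r = 0.97), Gpa33 (0.96), Morc1 (0.96), a gene known from the male germ line, Psma8 (0.95), a proteasome subunit of the testis, and Dhx16 (0.95), an RNA helicase. For Klf4 the nearest were Clmp (0.88), Pura (0.87), Glb1 (0.87), which encodes a lysosomal beta-galactosidase, Tbx3 (0.87), a T-box factor of naive cells, and Ddx58 (0.87), a sensor of viral RNA. Klf5 ran most like Cdc5l (0.96), a splicing factor, Gtf2h1 (0.94), a subunit of general transcription factor TFIIH, Rbbp5 (0.93), Eif2b5 (0.93) and Naa35 (0.93). Between the members themselves r was 0.60 for Klf2 and Klf4, 0.48 for Klf4 and Klf5 and 0.32 for Klf2 and Klf5.

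With passage, Klf4 differed between the libraries by cluster: it was higher at time 2 in the Jam2-led, endoderm-like, T-led, H19-led and fibroblast-like clusters, and close to level in the Nanos3-led and primed epiblast-like clusters. Klf5 was higher at time 2 in the Jam2- and H19-led clusters, and Klf2 was level in the first and lower in the second. The clusters changed in size, with the H19-led at 7027 and 701 cells, the Nanos3-led at 92 and 7698, the Mras-led at 40 and 9516, and the Jam2-led at 1979 and 2202. Within the Jam2-led cluster Klf4 was at 119 and 300 CPM, 2.50-fold (log2 1.32, 1.297 to 1.35), Klf5 at 200 and 293 CPM, 1.46-fold, and Klf2 at 411 and 414 CPM (log2 0.01, -0.0078 to 0.03). Within the H19-led cluster Klf4 was 1.32-fold and Klf5 1.27-fold higher at time 2, but Klf2 was lower, at 386 and 322 CPM (log2 -0.26). These values differed by X dosage class, defined below. In its X-high cells Klf4 was at log2 0.99 and Klf2 at -0.05. In its X-low cells Klf4 was lower at time 2 (log2 -0.17, -0.28 to -0.05) and Klf2 was at -0.56. Klf5 was higher in both classes (log2 0.60 and 0.19). Its trophoblast markers summed to 35.5 and 107 CPM, and their part in the result was not tested. In the Nanos3-led cluster Klf4 was at 90.0 and 85.9 CPM (log2 -0.07, -0.19 to 0.06) and Klf5 at 157 and 164 CPM (log2 0.06, -0.04 to 0.15), while Klf2 was lower, at 505 and 461 CPM (log2 -0.13, -0.19 to -0.08). Within the primed epiblast-like cluster Klf4 was at 25.1 and 26.0 CPM (log2 0.05, -0.10 to 0.21), so its interval spanned 0. In the endoderm-like cluster Klf4 was at 30.5 and 58.6 CPM, 1.89-fold (log2 0.92, 0.70 to 1.15), and in the T-led cluster, with 67 cells at time 1, at 13.3 and 23.7 CPM, 1.72-fold (log2 0.78, 0.38 to 1.18). The endoderm markers of the endoderm-like cluster summed to 263 and 670 CPM and its endothelial markers to 232 and 338 CPM, and their part in the result was not tested. The fibroblast-like cluster was higher at time 2 for all 3 genes, by 1.31-fold for Klf2, 1.25-fold for Klf4 and 1.79-fold for Klf5, while its fibroblast markers summed to 2448 CPM at time 1 and 1708 at time 2, and the part of that difference in the result was not tested.

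Pooled over the 4 clusters, Klf4 stood at 74.8 CPM at time 1 and 125 CPM at time 2, a 1.67-fold difference (log2 0.74, counting interval 0.72 to 0.75). Klf5 stood at 136 and 201 CPM, 1.48-fold (log2 0.56, 0.55 to 0.57), just under the 1.5-fold mark used to call a gene. Klf2 stood at 393 and 438 CPM, 1.11-fold (log2 0.16, 0.15 to 0.16), although it was level or lower at time 2 in each of the 3 pluripotent clusters that held at least 50 cells in both libraries. In cells without a called autosome gain (4364 at time 2) Klf4 was at 74.4 and 194 CPM, 2.58-fold (log2 1.37), and Klf5 at 136 and 225 CPM, 1.65-fold, past the mark. Of 7363 genes that reached 10 CPM in 1 library or both, 5.45% were at least 1.5-fold higher at time 2 and 10.5% at least 1.5-fold lower, so 1 of 3 members was called higher. In the pooled cells, by rank from the highest ratio, Klf4 was 199, Klf5 452 and Klf2 2277 of the 7363. Scaling with edgeR's trimmed mean of M-values (TMM) moved the median log2 ratio of all tested genes from -0.03 to 0.12, gave 782 higher and 510 lower genes in place of 401 and 771, and put Klf5 past the mark as well (log2 0.71). With the primed epiblast-like cluster added, which held 6889 cells at time 1 and 266 at time 2, the log2 ratios were 0.63 for Klf2, 1.19 for Klf4 and 0.76 for Klf5, all past the mark. The T-led cluster, with similar sums of primed markers, held 67 and 3863 cells and was not part of that pool. With the T-led and Notch2-led clusters added as well (chosen after seeing the data), the ratios were 0.43, 1.04 and 0.71. Klf2 was then under the mark. The pooled values depend on which clusters are pooled. The H19-led cluster has a trophoblast marker among its 10 leading genes. The 6 trophoblast markers summed to 35.5 CPM there at time 1 and 107 CPM at time 2. In the Jam2-, Nanos3- and Mras-led clusters they summed to between 4.17 and 22.7 CPM. None of the 12 listed pluripotency markers was among the leading genes of any of the 4 clusters, although Tbx3 was for the Jam2-led and Dppa3 for the Nanos3-led cluster. With the H19-led cluster left out (2111 and 19416 cells, an alternative chosen after seeing the data) Klf4 was at 118 and 127 CPM, 1.07-fold (log2 0.10), Klf5 at 198 and 202 CPM, 1.02-fold (log2 0.03), and Klf2 at 414 and 442 CPM, 1.07-fold (log2 0.09). This ratio too compares different clusters, since 1979 of the 2111 cells at time 1 were Jam2-led and most at time 2 were Nanos3- and Mras-led. None of the 3 was then past the mark, which 5.13% of 7352 genes passed as higher and 11.7% as lower.

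**Figure D2:**
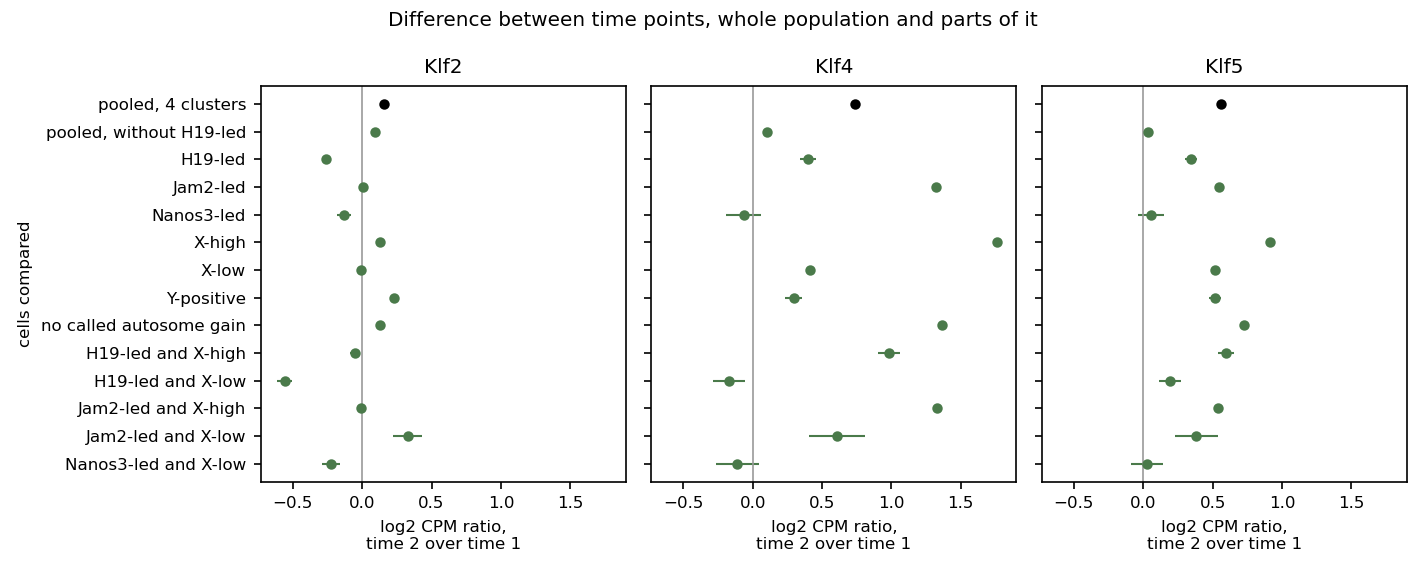
Log2 ratio of CPM plus 1, time 2 over time 1 (x axis), for the pooled population (black), and for the same without the H19-led cluster, single clusters, X dosage classes and cells without a called autosome gain (green), with bars for counting intervals. Klf4 lies at 0.74 in the pooled cells and 0.10 without the H19-led cluster, reaches 1.76 in X-high cells and 1.32 in the Jam2-led cluster but lies at -0.07 in the Nanos3-led cluster, and Klf2 lies within 0.56 of 0 throughout.

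Cells were also grouped by X dosage, the share of X-linked UMIs relative to cells with at least 2 UMIs of Y genes. X-high cells (dosage at or above 1.2 and 0 Y UMIs, median 1.79 at time 1) numbered 5036 at time 1 and 2944 at time 2. X-low cells, with 0 Y UMIs, numbered 2777 and 14592, and Y-positive cells 667 and 1406. A class is a range of X-linked RNA, and the sex chromosomes of a single cell were not known. At time 1 Klf4 in the 3 classes spanned a narrow range, at 73.8 CPM in X-high, 76.7 in X-low and 78.4 in Y-positive cells. At time 2 it was 252 CPM in X-high cells, against 103 in X-low and 96.4 in Y-positive cells. The X-high level was thus 3.38-fold higher at time 2, the X-low level 1.33-fold and the Y-positive level 1.23-fold. Within clusters, X-low Klf4 was not higher at time 2 in H19-led (log2 -0.17) or Nanos3-led cells (log2 -0.11, -0.27 to 0.04, 63 cells at time 1). It was higher in Jam2-led X-low cells (log2 0.61, 54 and 70 cells). Of the 14592 X-low cells at time 2, 8061 were Mras-led. Klf5 was at 138, 132 and 135 CPM in X-high, X-low and Y-positive cells at time 1 and at 261, 189 and 193 CPM at time 2, so its X-high level was 1.88-fold and its X-low and Y-positive levels 1.43-fold higher at time 2. Klf2 was lower in X-high than in X-low cells in both libraries, at 369 against 445 CPM and at 404 against 442 CPM (log2 -0.27 and -0.13). The gain of chromosome 8, which holds Klf2, was called in 0.695% of X-high and 22.5% of X-low cells at time 1, and in 7.07% and 39.5% at time 2. Without cells that had a called autosome gain the log2 ratios were -0.11 and -0.061, and within the H19-led cluster at time 2 the direction was the opposite (log2 0.12, 0.05 to 0.18).

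The Jam2-led cluster made up 35.3% of X-high cells at time 1 and 69.2% at time 2, against 1.94% and 0.480% of X-low cells, so X class and cluster moved together. In Jam2-led cells alone, at time 2, Klf4 was at 309 CPM in 2037 X-high cells and at 154 CPM in 70 X-low cells (log2 1.00). The gap was smaller in the other clusters of that library, at log2 0.41 in the Nanos3-led, 0.31 in the H19-led and 0.20 in the Mras-led. Klf5 gave 0.37 in the Jam2-led and 0.18 in the Mras-led cluster, and its interval spanned 0 in the Nanos3-led (-0.03) and H19-led (-0.05) clusters. In H19-led cells the order of the classes at time 1 was the reverse of this: Klf4 was at 41.5 CPM in 3257 X-high cells and at 75.4 CPM in 2637 X-low cells (log2 -0.85), and Klf5 at 93.9 and 129 CPM (log2 -0.46). At time 2 the H19-led X-high cells had 83.0 CPM of Klf4 and the X-low cells 67.0 CPM. Without the H19-led cluster the log2 ratio of X-high over X-low cells at time 1 was 0.30 for Klf4 (1779 and 140 cells) and 0.24 for Klf5, in place of -0.06 and 0.06, and at time 2 it was 1.39 and 0.53. The near-equal Klf4 of the X classes at time 1 therefore joined low X-high cells of the H19-led cluster with high X-high cells of the Jam2-led cluster (122 CPM). Without cells that had a called autosome gain, Klf4 at time 2 was 269 CPM in X-high and 87.2 CPM in X-low cells.

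**Figure D3:**
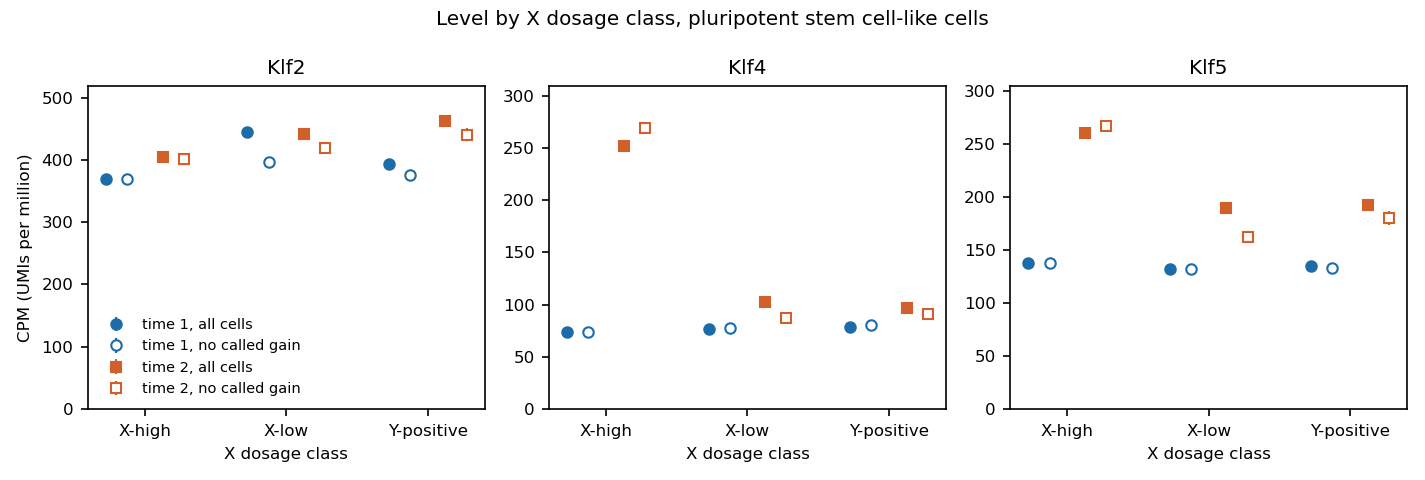
Level of each gene (y axis, CPM) in X-high, X-low and Y-positive cells, with filled marks for all pluripotent stem cell-like cells, open marks for those without a called autosome gain, and bars for 95% Poisson intervals. For Klf4 the X-high cells of time 2 (252 CPM, or 269 CPM without gains) stand apart from the other classes, which lie between 73.3 and 103 CPM.

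Other genes of the pathway, from lists of known members, were read beside the 3 factors in the pooled pluripotent population. In the Kruppel-like family, 11 of 17 genes reached 10 CPM. Besides Klf4, 1 gene passed 1.5-fold: Klf6 was lower, at 92.1 and 39.7 CPM. With 1 of 11 higher and 1 of 11 lower the family was near the share of all tested genes (5.45% and 10.5%). The median log2 ratio of the 11 was -0.07, against -0.03 over all tested genes. Klf3, a repressor of the family, was at 50.3 and 66.7 CPM and Klf9 at 124 and 130 CPM. In the Sp family, the nearest relatives, 0 of 3 tested genes passed the mark in either direction, a count too small to set against those shares.

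In the LIF and Stat3 arm, 2 of 6 tested genes were at least 1.5-fold higher and 0 lower, against 5.45% and 10.5% of all tested genes. Stat3 itself was at 15.1 and 31.4 CPM (log2 1.01), and Socs3, the feedback inhibitor that Stat3 induces, at 13.6 and 21.2 CPM. The receptor subunits Lifr (13.4 and 17.8 CPM) and Il6st (17.7 and 15.8 CPM) and the kinase Jak1 (28.1 and 21.5 CPM) did not pass the mark. Among naive regulators, 5 of 9 tested genes were higher and 1 lower (all tested genes 5.45% and 10.5%), with a median log2 ratio of 0.76, but without the H19-led cluster the counts were 2 and 2 and the median 0.22. The higher ones were Tfcp2l1 (38.5 and 72.0 CPM), Tbx3 (29.9 and 51.5), Zfp42 (70.9 and 134), Nr5a2 (10.5 and 29.0) and the X-linked Nr0b1 (29.1 and 57.1), and the lower one was Dppa3 (347 and 190 CPM), a maternal-effect gene. Tfcp2l1 and Nr5a2 lie on chromosome 1, called gained in 1.47% of these cells at time 1 and 60.4% at time 2. Zfp42 lies on chromosome 8, called gained in 7.77% and 34.6%. The part of these gains in the counts was not tested. Nanog was at 148 and 122 CPM and Esrrb at 42.1 and 50.9 CPM.

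The core factors Pou5f1 (705 and 787 CPM), Sox2 (317 and 304 CPM) and Sall4 did not pass the mark, 0 of 3 in either direction, which at 5.45% and 10.5% over all tested genes tells nothing of the list. Of the 6 MAPK feedback and target genes, Etv4 was higher (29.7 and 64.3 CPM) and Egr1 lower (37.8 and 18.9 CPM), against 5.45% and 10.5% of all tested genes, while Dusp6 stood at 19.2 and 12.8 CPM. Otx2 (34.5 and 18.6 CPM) and Pou3f1 (26.4 and 16.6 CPM) were the 2 of 3 tested primed epiblast genes that were lower, against 10.5% of all tested genes, and with TMM scaling 1 of 3 was. Without the H19-led cluster, where 5.13% of all tested genes were higher and 11.7% lower, several of these counts differed. The Kruppel-like family then had 0 of 12 tested genes higher and 2 lower, Klf6 and Klf8, near those shares. Against the same shares, the naive regulators had 2 of 9 higher, Zfp42 (80.2 and 136 CPM) and Nr5a2 (12.7 and 29.5 CPM), and 2 lower, Nanog (213 and 122 CPM) and Tcl1 (78.8 and 43.4 CPM). Both higher genes lie on chromosomes whose gain was called in more cells at time 2, Zfp42 on chromosome 8 and Nr5a2 on chromosome 1. Dppa3 was then at 145 and 188 CPM and Tbx3 at 75.9 and 52.3 CPM, both in the opposite direction to the pooled values. The counts of the LIF and Stat3 arm, the core factors, the MAPK genes, the Sp family and the primed epiblast genes were equal to those with it. The counts and medians of these lists are descriptions of 2 libraries.

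Within a library, cells with more Klf4 also had more Klf5, Nanog and Tbx3, while Zfp42 differed along Klf4 at time 1 (63.4 and 92.2 CPM in the lowest and highest class) and hardly at time 2 (131 and 132 CPM). At time 1, in cells with 0 thinned Klf4 UMIs, Klf5 was at 111 CPM, Nanog at 118 and Tbx3 at 14.3 CPM, and in cells with 3 or more they were at 219, 248 and 90.3 CPM. At time 2 the same classes had 170 and 272 CPM of Klf5, 95.8 and 190 CPM of Nanog, and 28.6 and 113 CPM of Tbx3. The Jam2-led cluster made up 15.6% of the lowest and 43.8% of the highest Klf4 class at time 1, and 3.46% and 34.4% at time 2, so the classes differ in cluster as well. Klf2 classes ran the same way for Nanog, which was at 81.9 CPM with 0 Klf2 UMIs and 168 CPM with 3 or more at time 1, and at 80.0 and 128 CPM at time 2. Primed epiblast genes did not run alike along Klf2. Dnmt3b, a DNA methyltransferase gene, was at 106 and 89.3 CPM in the lowest and highest class at time 1 and at 118 and 69.9 CPM at time 2, whereas Otx2 was at 24.6 and 37.6 CPM and at 16.3 and 18.6 CPM.

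Set against the product of the single shares, co-detection of the members in single cells gave ratios between 1.00 and 1.14. A UMI of both Klf4 and Klf5 was found in 28.2% of thinned pluripotent stem cell-like cells at time 1, against 24.7% from the product of the single shares, a ratio of 1.14 (binomial interval of the observed share 1.105 to 1.18). At time 2 it was 47.7% against 45.6%, a ratio of 1.05 (1.03 to 1.06). Klf2 and Klf4 gave ratios of 1.05 (1.02 to 1.07) and 1.01 (1.00 to 1.03), and Klf2 and Klf5 gave 1.01 (0.990 to 1.03) and 1.00 (0.996 to 1.01). With the expected share summed over clusters, the Klf4 and Klf5 ratio was 1.11 at time 1 and 1.03 at time 2. Ratios are bounded near 1 where a gene is found in nearly every cell, as Klf2 was. Klf4 was found in 40.6% of cells with a Klf2 UMI and 22.2% of the 892 without at time 1. At time 2 it was 58.1% and 43.8% (1102 cells without). Klf5 was found in 72.6% of cells with a Klf4 UMI and 57.8% of those without at time 1, and in 83.2% and 74.6% at time 2. With and without a Klf2 UMI, Klf5 was found in 64.1% and 59.0%, and in 79.8% and 74.6%.

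Counting all 3 genes at once, 26.6% of cells had a UMI of each at time 1 and 45.7% at time 2, against 22.3% and 43.1% from the product. Cells with none of the 3 made up 3.40% at time 1 and 0.944% at time 2, against 2.18% and 0.478%. Both ends of the range were thus more common than the product. In Jam2-led cells the share with all 3 was 44.2% at time 1 and 75.3% at time 2. In H19-led cells, which were 7027 of 9138 at time 1 and 701 of 20117 at time 2, it was 21.2% and 27.8%. Nanos3-led cells gave 47.8% (92 cells) and 36.3%, and Mras-led cells 47.9% at time 2. The pooled shares of the 2 libraries thus also differ by their mix of clusters. In the primed epiblast-like cluster it was 6.21% and 5.64%, and 19.6% and 18.0% of those cells had none. In the fibroblast-like cluster, where Klf2 was found in 61.5% and 49.2% of cells, Klf2 and Klf5 gave ratios of 1.21 (1.02 to 1.42) and 1.46 (1.28 to 1.66). Both genes lay below their free RNA levels there, and the part of RNA from stem cells was not tested. Raised ratios were not particular to it. At time 2 the T-led cluster gave 1.25 (1.12 to 1.38) for Klf2 and Klf4 and 1.07 (1.02 to 1.13) for Klf2 and Klf5. The endoderm-like cluster gave 1.29 (1.03 to 1.57) for Klf4 and Klf5.

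**Figure D4:**
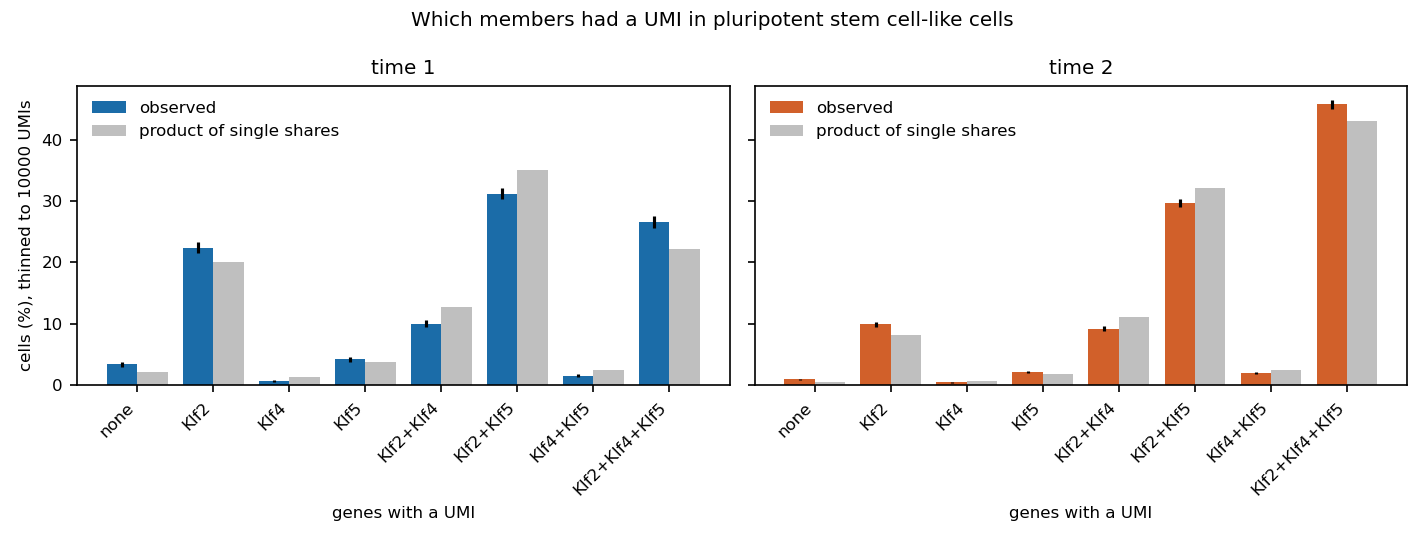
Share of pluripotent stem cell-like cells (y axis, percent, cells thinned to 10000 UMIs) with a UMI of each combination of the 3 genes (x axis), coloured bars for the observed share with exact binomial intervals and grey bars for the product of the single shares. The class with all 3 is at 26.6% in time 1 and 45.7% in time 2, and in both it lies above its grey bar. H19-led cells were 7027 of 9138 at time 1 and 701 of 20117 at time 2.

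Klf2 lies on chromosome 8, which many cells of this culture carry at a raised share. The chromosome 8 share of each cell was taken from its thinned UMIs, without Klf2 and relative to the median of time 1, and Klf2 was measured in the remaining UMIs. Cells at or above 1.3 were called gained (710 of 9138 at time 1 and 6963 of 20117 at time 2), and cells below 1.1 not gained (7241 and 4781). Cells between the marks were in neither group. At time 2 they numbered 2691 (share 1.1 to 1.2) and 5682 (1.2 to 1.3), and 80.3% and 80.4% had a called chromosome 1 gain. With the share taken over autosomes other than 1, 8 and 14, 776 and 10497 cells were called gained, so the number depends on the denominator. At time 1 Klf2 was at 379 CPM in cells without the gain and 567 CPM in gained cells, 1.49-fold (log2 0.58, 0.56 to 0.60), while chromosome 8 as a whole was 1.43-fold higher. At time 2 the values were 389 and 456 CPM, 1.17-fold (log2 0.23, 0.22 to 0.24), while chromosome 8 was 1.38-fold higher. Klf2 was ranked 139 of 450 chromosome 8 genes by this ratio at time 1 and 367 of 430 at time 2. Most of these genes set the share that grouped the cells, and Klf2 did not. The median log2 ratio of the genes that set it was 0.49 at time 1 (443 genes) and 0.42 at time 2 (424 genes), and that of the genes outside it, Klf2 among them, 0.58 (7 genes) and 0.52 (6 genes). At time 1, 83.6% of chromosome 8 genes and 5.74% of genes on other autosomes were at least 1.2-fold higher in gained cells, and at time 2, 80.0% and 4.69%. Klf2 passed that mark at time 1. At time 2 it did not in all cells, but it did in X-low cells (1.21-fold), in Y-positive cells (1.27-fold), in cells without other gains (1.22-fold) and within the Nanos3-led (1.27-fold) and Jam2-led (log2 0.38, 40 gained cells) clusters. It did not in X-high cells (1.09-fold) or within the Mras-led (1.13-fold) and H19-led (1.02-fold) clusters at time 2, nor at time 1 in X-high cells (1.06-fold) and within the Nanos3-led cluster (log2 0.25, 28 gained cells).

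Along finer steps of the share the 2 libraries differed in shape. At time 1 Klf2 went down from 434 CPM in cells at a share of 0.7 to 0.8 to 359 CPM at 1.1 to 1.2, and then up to 455 CPM at 1.2 to 1.3, 556 CPM at 1.3 to 1.4 and 579 CPM at 1.4 to 1.5. At time 2 it was between 382 and 401 CPM below a share of 1.1, at 444 CPM between 1.1 and 1.2, and between 453 and 477 CPM in all steps above that. The share of X-low cells rose with the chromosome 8 share as well, from 21.7% at 0.9 to 1.0 to 85.5% at 1.3 to 1.4 at time 1, and from 34.4% to 83.0% at time 2. A gain of chromosome 1, called in 1.47% of cells at time 1 and 60.4% at time 2, moved along the share at time 2 too, from 27.2% of cells at 0.9 to 1.0 to 80.4% at 1.2 to 1.3 and 26.5% above 1.5, and its part in the result was not tested beyond the ratio in cells without other gains (log2 0.29).

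Within X-low cells Klf2 was at 390 and 582 CPM at time 1 (625 gained cells) and at 373 and 452 CPM at time 2 (5769 gained cells), log2 0.58 and 0.28. In the 35 gained X-high cells of time 1 the level was 398 CPM against 374 CPM, and the interval of the log2 ratio (0.09, -0.04 to 0.22) spanned 0, while chromosome 8 was 1.37-fold higher (log2 0.46). In the 208 gained X-high cells of time 2 Klf2 was at 437 against 400 CPM (log2 0.13, 0.08 to 0.18), while chromosome 8 was 1.44-fold higher. Within the H19-led cluster the log2 ratio was 0.65 at time 1 (668 gained cells) and 0.03 at time 2 (150 gained cells, -0.06 to 0.11), although chromosome 8 was 1.42- and 1.45-fold higher. Without the H19-led cluster it was 0.31 at time 1 (42 gained cells, 0.22 to 0.39) and 0.22 at time 2. Within the Nanos3-led cluster at time 2 it was 0.34, and within the Mras-led cluster 0.18. The difference between the libraries in this ratio was not tested, since each time point had 1 library.

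**Figure D5:**
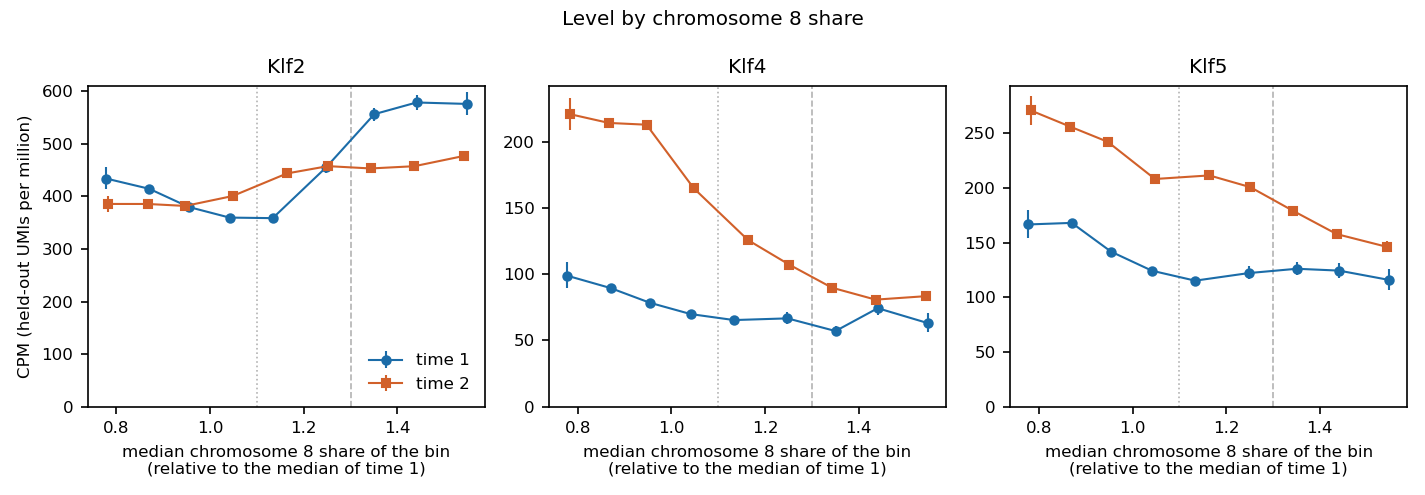
Level of each gene in UMIs not used for the share (y axis, CPM) against the median chromosome 8 share of each step (x axis, relative to the median of time 1), blue circles for time 1, orange squares for time 2, bars for 95% Poisson intervals, and vertical lines at 1.1 and 1.3. Klf2 reaches 579 CPM at time 1 but stays at or under 477 CPM at time 2, and Klf4 and Klf5 at time 2 go down along the axis.

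Of the 5 genes on each side of Klf2 with at least 10 CPM, the nearest, Ap1m1 and Eps15l1, had log2 ratios with the gain of 0.52 and 0.35 at time 1 and 0.57 and 0.23 at time 2. Over all 10 neighbours the ratios ran from 0.15 (Zfp961) to 0.58 (Rab8a) at time 1 and from 0.03 (Slc35e1) to 0.57 (Ap1m1) at time 2. Between time points, the log2 ratios of the 10 neighbours in the pooled population ran from -0.03 (Tpm4) and 0.01 (Slc35e1) to 0.65 (Rab8a) and 0.82 (Ap1m1), and that of Klf2 (0.16) lay within this range.

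Klf4 and Klf5, which lie on other chromosomes, were lower in cells with the chromosome 8 gain. At time 2 Klf4 was at 199 CPM in cells without it and 87.2 CPM in gained cells (log2 -1.18), and Klf5 at 236 and 171 CPM (log2 -0.46). X-high cells, which held the highest Klf4, made up 55.7% of cells at a share of 0.9 to 1.0 and 2.39% at 1.3 to 1.4 in that library. The 2 groups also differed in cluster. Jam2-led cells, with 300 CPM of Klf4 and 293 CPM of Klf5, were 2042 of the 4781 cells without the gain and 40 of the 6963 gained cells. Nanos3-led cells numbered 1273 and 3956, and Mras-led cells 1064 and 2817. The part of X class and cluster in the result was not tested, and no ratio within a cluster is given. At time 1 the differences were smaller, at 77.8 and 64.3 CPM for Klf4 and 141 and 124 CPM for Klf5.

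Klf5 lies on chromosome 14, which 3605 cells had at a share of 1.3 or above at time 2. Klf5 was at 252 CPM in those cells and at 184 CPM in the 13468 cells below 1.1 (log2 0.45, 0.43 to 0.46), while chromosome 14 as a whole was 1.41-fold higher. It ranked 184 of 273 chromosome 14 genes, most of which set the share while Klf5 did not, and of which 91.2% were at least 1.2-fold higher in gained cells, against 6.54% of genes on other autosomes. Within the Mras-led cluster the log2 ratio was 0.59 and within the Nanos3-led cluster 0.40. In 46 gained cells at time 1 it was 0.34 (0.18 to 0.50). Chromosome 4, which holds Klf4, was called gained in 2 cells at time 1 and 15 at time 2, too few for a comparison.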

How the data were processed

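RNA of single cells was measured, with 1 library for each time point. The deposited values are unnormalised UMI counts. The submitters' processing notes name Cell Ranger 6.1.2, bcl2fastq 2.20.0.422 and the builds mm10 and GRCm38. Of 32285 features, 32235 matched GENCODE M21 by identifier. The pool of 9 lines counts as 1 sample per library. Members and lists were chosen with earlier results of these data known.

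A barcode was kept as a cell if it passed 18315 UMIs at time 1 or 18646 at time 2 (0.1 times percentile 99 of the 20000 largest), 1000 genes, and a mitochondrial limit of 10%. The automatic threshold of Scrublet (scanpy 1.11.5) did not work at time 1, so the 10% of highest scores were removed in each library (9.53% and 9.61% after ties), a choice made after seeing this. Clusters came from 2000 variable genes, without the members, 30 components, 15 neighbours and Leiden at resolution 0.5 (igraph 0.11.9). Markers were fixed before naming, but the naming rule was set after the clusters were seen: a first leading gene that is no marker of another class (Lyz2 is one), at most 1 marker of another class among the 20 leading genes, all 12 pluripotency markers detected and a median depth within 1.5 times that of all cells. Other classes needed at least 2 markers among those 20. The H19-led cluster met this rule with a trophoblast marker among its 10 leading genes. None of the 4 clusters had one of the 12 pluripotency markers among its leading genes. Some values of the pooled class, among them the ratios between time points and between X classes, are also given without the H19-led cluster. No such values are given for the combinations of all members, the classes by Klf2 or Klf4 UMIs, or the steps of chromosome share. The ratios of Klf4 and Klf5 with a chromosome gain are not given without it either.

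Levels are summed UMIs scaled to 1000000 (CPM), with exact Poisson 95% intervals, and shares of cells have Clopper-Pearson 95% intervals. Log2 ratios are of CPM + 1, with 95% intervals from a normal approximation to the Poisson counts. All these intervals cover counting error only. Chromosome shares and shares of cells used cells thinned to 10000 UMIs. For chromosome shares, genes had to be found in 5% of the cells of each library, and ribosomal protein genes and genes above 3% of their chromosome were left out. The named genes were the members, the 5 most alike for each, the listed pathway genes and 5 neighbours of Klf2 on each side. Methods were tested on simulated data. Alternatives were scaling (TMM factors, edgeR 4.0.16, R 4.3.3), pseudocount, population, filters, clustering, thinning and thresholds. Software was Python 3.11.15, pandas 2.3.3, scipy 1.17.1 and numpy 2.4.6.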

Additional observations from a re-analysis of the deposited data

How the results depend on the processing

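With 1 library per time point leaving out a library was not possible, and no value here has a replicate check. No paired analysis was possible because each group had 1 library. Of 163 alternative values, 66 stayed within the counting interval of the value given (for counts, within 1.5 times), 95 moved and 2 reversed, and with this many UMIs even small moves leave that interval. Gained cells were few for chromosome 8 in X-high cells at time 1 (35 cells) and too few for a comparison on chromosome 4.

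The pooled log2 ratios of time 2 over time 1 for Klf2, Klf4 and Klf5 were above 0 in all alternatives tried, which all mix clusters. Within single clusters they were not all above 0. In the Jam2-, H19- and Nanos3-led clusters Klf2 was at 0.01, -0.26 and -0.13, Klf4 at 1.32, 0.40 and -0.07, and Klf5 at 0.55, 0.34 and 0.06. The pooled ratios were 0.31, 0.89 and 0.71 with TMM scaling, 0.63, 1.19 and 0.76 with the primed epiblast-like cluster added, 0.41, 1.02 and 0.72 in all filtered cells, and 0.13, 1.37 and 0.72 in cells without a called gain. With other filters and clusterings, which also changed the clusters named pluripotent stem cell-like, they were 0.39, 1.13 and 0.78 with doublets kept, 0.21, 0.84 and 0.61 with a mitochondrial limit of 20%, 0.24, 0.89 and 0.69 with 2 times the minimum of UMIs, 0.21, 0.85 and 0.61 with the members among the genes clustered, and 0.33, 1.05 and 0.75 at resolution 1.0. In alternatives chosen after seeing the data they were 0.27, 0.92 and 0.70 with the Notch2-led cluster added, and 0.43, 1.04 and 0.71 with the Notch2-led, T-led and primed epiblast-like clusters added. Without the H19-led cluster, also chosen after seeing the data, they were 0.094, 0.10 and 0.033, so Klf4 no longer passed 1.5-fold. Klf2 thus passed 1.5-fold in 1 of these alternatives.

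Without the H19-led cluster, 0 Kruppel-like genes were higher and 2 lower, and 2 naive regulators were higher and 2 lower, against 5.13% and 11.7% of all tested genes. TMM scaling, which gave 782 higher and 510 lower genes of 7363 in place of 401 and 771, moved the Kruppel-like genes called higher to 2 and the primed epiblast genes called lower to 1. Without a CPM minimum, 1 LIF and Stat3 arm gene was lower, 2 Kruppel-like genes and 1 Sp family gene were higher, and 4 primed epiblast genes were lower. No share over all genes is given for this setting, so nothing is read from these counts.

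Thinned to 5000 UMIs, the co-detection ratios that moved were 1.08 (Klf2 and Klf4), 1.03 (Klf2 and Klf5) and 1.21 (Klf4 and Klf5) at time 1, and 1.01 (Klf2 and Klf5) and 1.09 (Klf4 and Klf5) at time 2. With all UMIs, where most cells hold each gene, they were 1.01 (Klf2 and Klf4) and 1.02 (Klf4 and Klf5) at time 1 and 1.00 (Klf4 and Klf5) at time 2. Without the H19-led cluster Klf4 and Klf5 gave 1.097 at time 1, and shares of cells with a UMI were 92.1%, 56.4% and 75.3% at time 1 and 95.0% (Klf2) at time 2. With doublets kept Klf4 and Klf5 gave 1.102 at time 1. Shares of cells with a UMI were 98.8%, 72.1% and 94.2% at time 1 and 99.5%, 89.2% and 98.6% at time 2 for Klf2, Klf4 and Klf5 with all UMIs.

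The log2 ratio of Klf2 with the chromosome 8 gain stayed above 0 in all alternatives tried. At time 1 it was 0.31 without the H19-led cluster, 0.49 with a threshold of 1.2, 0.61 with 1.4, 0.65 in the largest cluster and 0.62 without other gains. At time 2 it was 0.25 with a threshold of 1.4, 0.25 with the share taken over autosomes other than 1, 8 and 14, 0.28 in X-low cells, 0.18 in the largest cluster and 0.29 without other gains.

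For X-high over X-low cells, 2 values reversed: Klf5 at time 1 was at log2 0.06 in all cells and -0.46 in the largest cluster, and Klf4 at time 1 was at -0.06 and, without the H19-led cluster, 0.30. Without that cluster Klf2 and Klf5 were at -0.16 and 0.24 at time 1, and Klf2, Klf4 and Klf5 at -0.10, 1.39 and 0.53 at time 2. In the largest cluster, which was the H19-led at time 1 and the Mras-led at time 2, Klf2 was at -0.39 and Klf4 at -0.85 at time 1, and at time 2 Klf2 was at -0.10, Klf4 at 0.20 and Klf5 at 0.18. In cells without a called gain Klf2 was at -0.11 at time 1, and Klf2, Klf4 and Klf5 were at -0.061, 1.61 and 0.71 at time 2. With X-high taken at 1.5, Klf2, Klf4 and Klf5 were at -0.25, -0.0040 and 0.10 at time 1, and Klf4 and Klf5 at 1.44 and 0.53 at time 2. The cause of these moves was not tested.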
